A study of Mus musculus with 6 samples.

Results

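The 7 genes described are the PDGF (platelet-derived growth factor) ligands Pdgfa, Pdgfb, Pdgfc and Pdgfd, the receptors Pdgfra and Pdgfrb, and the receptor-like gene Pdgfrl. They were chosen by symbol from the 54433 genes of the deposited table, all 7 were found there, and all 7 were among the 14889 genes with enough counts to be tested. RNA sequencing of poly(A) transcripts was applied to the mouse line MC3T3-E1, which serves as a model of osteoblasts, the cells that form bone. All cells were grown with 10% fetal bovine serum. FR denotes 3 libraries from MC3T3-E1 cells described as resistant to 30 ppm fluoride and exposed to a gradient of it. They had been adapted by continuous exposure to fluoride in a gradient of 10 ppm, with proliferation followed by a cell counting assay. WT denotes 3 libraries from wild-type MC3T3-E1 cells in Dulbecco's modified Eagle medium. Resistance, exposure and time in adaptation are not separated by these groups. The treatment notes speak of clones, but not of how many the FR libraries hold or whether the libraries came from separate cultures, so the p-values measure only the spread between these libraries.

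PDGFs are secreted dimers that bind receptor tyrosine kinases on mesenchymal cells and drive their proliferation and migration. PDGF-A and PDGF-C act mainly through PDGFRα, PDGF-B through both receptors and PDGF-D mainly through PDGFRβ. PDGF-A and PDGF-B are processed inside the cell, whereas PDGF-C and PDGF-D are secreted with a CUB domain that extracellular proteases must remove. PDGFRα and PDGFRβ are found on skeletal progenitors, fibroblasts and pericytes, and PDGF signalling in bone is known for recruiting and expanding osteoblast precursors.

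Each of the 7 genes differed between FR and WT cells. Pdgfa and Pdgfrb rose, and Pdgfb, Pdgfc, Pdgfd, Pdgfra and Pdgfrl fell. The falls ranged from 1.75-fold for Pdgfra to 14.6-fold for Pdgfd, and the rises were 1.13-fold for Pdgfrb and 1.35-fold for Pdgfa. The test was edgeR's quasi-likelihood F-test with Benjamini-Hochberg adjustment over all tested genes. By it 70.1% of all tested genes had an adjusted p under 0.05, with 34.6% higher and 35.5% lower in FR, so that a call alone is common in these data. The median log2 fold change, FR over WT, was −0.91 over the 7 genes and 0.00 over all tested genes. Falls of at least 2-fold were called for 3 of the 7 genes and for 11.4% of all tested genes, and rises of at least 2-fold for 0 of the 7 and for 7.40% of all. In none of the 7 genes did the 3 FR values overlap the 3 WT values, which also held for 72.4% of all tested genes.

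**Figure D1:**
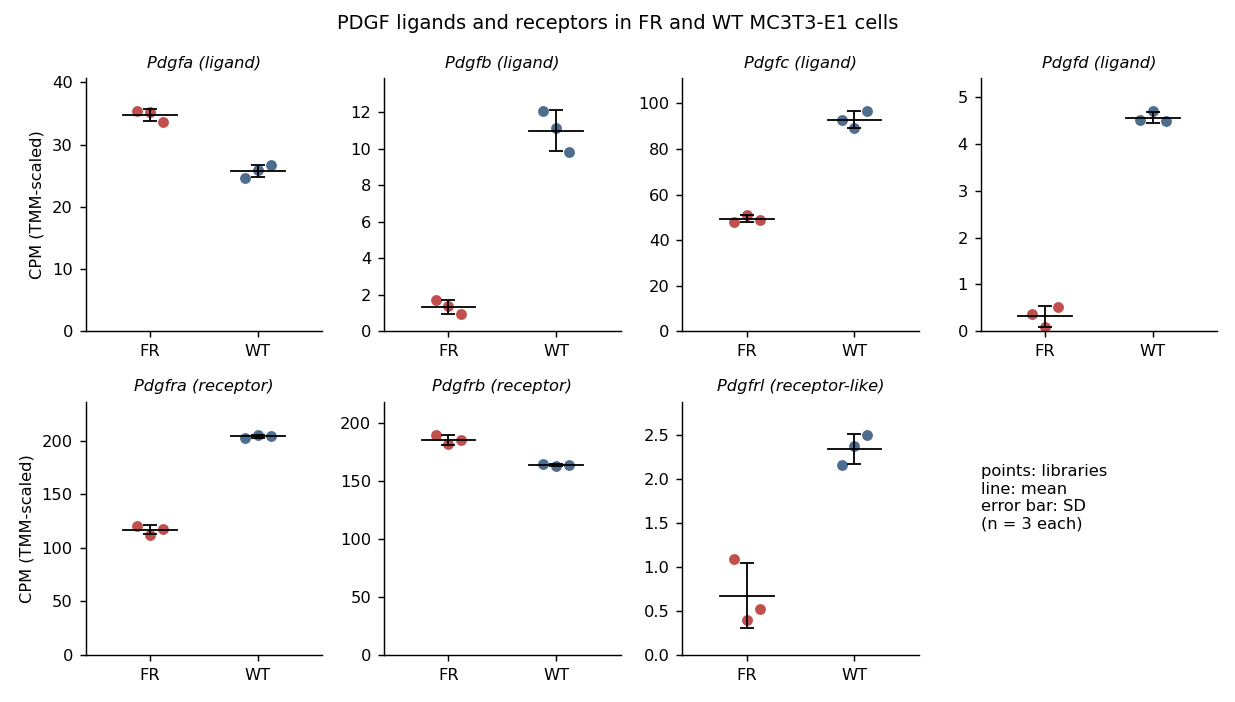
CPM, a gene's counts scaled to one common library total after TMM adjustment for composition, of each PDGF ligand and receptor on a linear axis from 0, with 1 point per library, the mean as a line and the SD as an error bar (n = 3 each). The 3 FR points lie apart from the 3 WT points in every panel, above them for Pdgfa and Pdgfrb and below them for the others.

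The receptors, which carry the signal into the cell, moved in opposite directions. Pdgfra (ENSMUSG00000029231), the receptor bound by most PDGF dimers, had 120, 112 and 118 CPM in the FR libraries and 203, 205 and 204 CPM in the WT libraries. Every FR library was thus well below every WT library, and libraries of a group lay close together. The mean was 117 ± 4.14 CPM in FR and 204 ± 1.14 CPM in WT (SD, n = 3 each), a log2 fold change of −0.81 ± 0.03 SE (edgeR adjusted p = 2.32e-19). Pdgfrb (ENSMUSG00000024620), the receptor typical of pericytes and other perivascular cells, had 189, 181 and 185 CPM in FR and 164, 163 and 163 CPM in WT. The FR libraries were all higher, but by little, with a log2 fold change of 0.18 ± 0.03 SE (edgeR adjusted p = 3.01e-06). This rise did not pass a test against a change of at least 1.2-fold (glmTreat adjusted p = 1.00). The cells were measured in bulk, so fewer cells carrying a transcript and less of it per cell cannot be told apart.

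Pdgfrl (ENSMUSG00000031595) encodes a secreted protein that resembles the outer part of a PDGF receptor and lacks a kinase. It was scarce, with 21, 10 and 11 expected counts in FR and 59, 61 and 64 in WT. All 3 FR libraries were lower, and 1 of them, FR replicate 1, stood above the other two FR libraries. The mean was 0.670 ± 0.369 CPM in FR and 2.34 ± 0.169 CPM in WT (SD, n = 3 each), with a log2 fold change of −1.84 ± 0.30 SE (edgeR adjusted p = 3.98e-06).

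Among the ligands the abundant pair split, one rising and the other falling. Pdgfa (ENSMUSG00000025856), whose homodimer binds PDGFRα, had 35.3, 35.2 and 33.6 CPM in FR and 24.6, 25.9 and 26.7 CPM in WT. The FR libraries were all higher, and the log2 fold change was 0.43 ± 0.06 SE (edgeR adjusted p = 6.69e-08). Pdgfc (ENSMUSG00000028019), the CUB-domain ligand of PDGFRα, had 48.0, 51.2 and 48.9 CPM in FR and 92.8, 89.3 and 96.5 CPM in WT. It was lower in every FR library, at 53.3% of WT by the fit, with a log2 fold change of −0.91 ± 0.04 SE (edgeR adjusted p = 8.12e-18). The fall of Pdgfra, the main receptor of this ligand, was of −0.81 on the same scale.

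The remaining ligands, both able to activate PDGFRβ, were scarce, more so in FR than in WT. Pdgfb (ENSMUSG00000000489), the ligand best known for recruiting pericytes to vessels, had 33, 34 and 20 expected counts in FR and 329, 287 and 252 in WT. In CPM this was 1.34 ± 0.385 in FR and 11.01 ± 1.12 in WT (SD, n = 3 each), an 8.25-fold fall (log2 fold change −3.04 ± 0.16 SE, edgeR adjusted p = 4.90e-16). Pdgfd (ENSMUSG00000032006), the CUB-domain ligand of PDGFRβ, had 7, 2 and 11 expected counts in FR and 123, 121 and 115 in WT. Its FR counts summed to 20 against 359 in WT, and FR replicate 2 was below 3 counts, the level that a count of 0 would allow. The log2 fold change of Pdgfd was −3.87 ± 0.30 SE (edgeR adjusted p = 7.47e-12), and its size rests on these few FR counts. Ordered by change, Pdgfd stood at percentile 1.71 of log2 fold change among all tested genes and Pdgfb at percentile 3.51, whereas Pdgfrb stood at percentile 64.6.

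**Figure D2:**
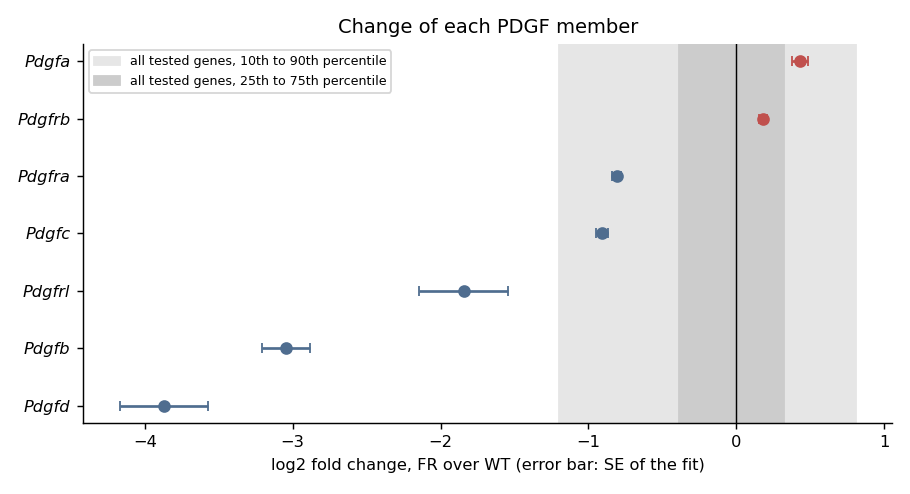
Log2 fold change, FR over WT, of each PDGF gene (point) with the SE of the fit (bar), over the span of all tested genes (light band, 10th to 90th percentile; dark band, 25th to 75th percentile). Pdgfd (−3.87), Pdgfb (−3.04) and Pdgfrl (−1.84) lie left of the light band, and Pdgfrb (0.18) lies within the dark band.

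Levels of different genes were compared per length, as CPM divided by the deposited gene length in kilobases. On this scale Pdgfra was at 17.1 ± 0.606 and Pdgfrb at 34.2 ± 0.743 in FR cells (SD, n = 3 each). In WT cells the receptors were level, with Pdgfra at 29.9 ± 0.167 and Pdgfrb at 30.1 ± 0.117 (SD, n = 3 each), and their ranges overlapped. The order of per-length levels in FR was Pdgfrb, Pdgfa (22.5), Pdgfra, Pdgfc (14.0), Pdgfb (0.455), Pdgfrl (0.433) and Pdgfd (0.179). Of these, Pdgfb and Pdgfrl overlapped over the FR libraries, as did Pdgfrl and Pdgfd. The order in WT was Pdgfrb, Pdgfra, Pdgfc (26.4), Pdgfa (16.7), Pdgfb (3.74), Pdgfd (2.54) and Pdgfrl (1.51), and only the receptors overlapped. On this scale Pdgfa was the most abundant ligand transcript in FR and Pdgfc in WT. The order in FR rests on the deposited lengths, 1543 bases for Pdgfa and 3521 for Pdgfc, since before division by length Pdgfc was above Pdgfa in each FR library (49.4 ± 1.66 against 34.7 ± 0.960 CPM, SD, n = 3).

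The make-up of the family within each library changed accordingly. Pdgfra made up 33.5%, 32.9% and 33.5% of the summed receptor transcripts in FR and 49.54%, 50.01% and 49.78% in WT. Pdgfa made up 60.5 ± 0.723% of the 4 ligands in FR and 33.8 ± 1.04% in WT, and Pdgfc 37.8 ± 1.06% in FR and 53.4 ± 1.05% in WT (SD, n = 3 each). Pdgfb and Pdgfd together were the small remainder, with Pdgfb at 1.22 ± 0.338% in FR and 7.59 ± 0.897% in WT, and Pdgfd at 0.486 ± 0.344% in FR and 5.15 ± 0.222% in WT (SD, n = 3 each). The summed per-length level of the 4 ligands was 37.2 ± 0.798 in FR and 49.3 ± 1.05 in WT, and that of the receptors was 51.2 ± 1.34 in FR and 60.0 ± 0.0523 in WT (SD, n = 3 each). Of 8 such shares, sums and ratios compared, none overlapped between the groups. Each had a two-sided exact permutation p of 0.10, the smallest that 3 against 3 libraries allow, and 0.10 after Benjamini-Hochberg adjustment. None could therefore pass a threshold of 0.05. The deposited length is a single value per gene, so a change of isoform would alter these levels unseen.

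**Figure D3:**
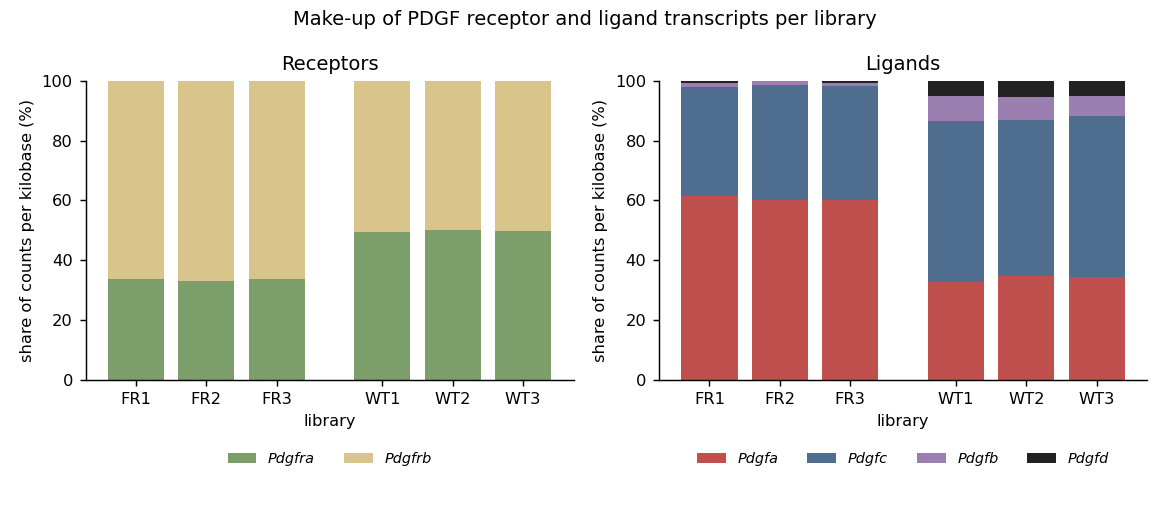
Share (%) of each receptor in the summed Pdgfra and Pdgfrb transcripts (left) and of each ligand in the summed ligand transcripts (right), per library, from counts per kilobase. Pdgfra takes about a 33% share in each FR bar and a 50% share in each WT bar, and Pdgfa takes the largest ligand share per length in FR and Pdgfc in WT.

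Promoter sequences from RefSeq (build GRCm38.p6, not the build of the counts) are given for 4 of the 7 genes. They are windows of 300 bases that run from 250 bases before a transcription start to 50 after it. They are shown 5′ to 3′ on the strand of the gene. Of these 4 genes Pdgfa rose, and Pdgfc, Pdgfd and Pdgfra fell. Pdgfrb, which also rose, is not among them, so the windows do not compare genes that rose with genes that fell. The windows are chr5:138994895-138995194 (minus strand) for Pdgfa, chr3:81036166-81036465 (plus strand) for Pdgfc, chr9:6168236-6168535 (plus strand) for Pdgfd and chr5:75152001-75152300 (plus strand) for Pdgfra. Capitals mark matches on either strand to GGGCGG, the core of the GC box bound by Sp1-type factors, or to TATAAA, a core promoter element.
Pdgfa: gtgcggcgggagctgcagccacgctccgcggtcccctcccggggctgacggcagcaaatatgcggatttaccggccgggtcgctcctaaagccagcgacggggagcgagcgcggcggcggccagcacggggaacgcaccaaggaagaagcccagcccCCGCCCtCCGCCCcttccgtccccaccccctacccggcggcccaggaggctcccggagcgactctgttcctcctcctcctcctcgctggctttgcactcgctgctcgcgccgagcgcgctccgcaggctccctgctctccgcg
Pdgfc: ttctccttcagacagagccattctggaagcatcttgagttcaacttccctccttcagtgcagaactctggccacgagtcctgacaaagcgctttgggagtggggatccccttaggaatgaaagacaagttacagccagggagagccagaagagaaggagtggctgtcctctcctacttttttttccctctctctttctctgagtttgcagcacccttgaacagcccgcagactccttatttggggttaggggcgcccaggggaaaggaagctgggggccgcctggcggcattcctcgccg
Pdgfd: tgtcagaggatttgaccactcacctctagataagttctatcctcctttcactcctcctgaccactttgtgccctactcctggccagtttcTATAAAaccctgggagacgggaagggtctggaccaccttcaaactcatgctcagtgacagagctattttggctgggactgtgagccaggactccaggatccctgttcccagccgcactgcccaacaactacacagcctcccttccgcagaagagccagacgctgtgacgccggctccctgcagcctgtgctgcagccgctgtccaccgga
Pdgfra: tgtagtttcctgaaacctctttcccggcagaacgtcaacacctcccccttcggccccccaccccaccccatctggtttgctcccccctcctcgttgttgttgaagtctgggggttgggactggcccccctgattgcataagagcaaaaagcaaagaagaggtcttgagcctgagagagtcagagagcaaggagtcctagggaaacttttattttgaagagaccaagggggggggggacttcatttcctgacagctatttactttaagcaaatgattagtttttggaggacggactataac
The Pdgfa window, at the more upstream of 2 starts listed, held 2 matches to GGGCGG and was 73.3% G or C, above 94.5% of 32851 promoter windows, and the window of its other start held 1 match. The Pdgfd window held 1 match to TATAAA. Neither motif was found in the Pdgfc and Pdgfra windows, which were 55.0% and 51.0% G or C. Of all windows, 35.7% held GGGCGG and 13.6% held TATAAA, and TGANTCA (the AP-1 site, in 7.81%) and CCAAT (in 37.4%) were found in none of the 5 windows. The matches do not overlap each other, describe these letters only, and were not tested against expression.

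Around the receptors, genes of signal transmission moved in both directions. The count of each list is to be read beside all tested genes, of which 34.6% were higher and 35.5% lower in FR. Of 30 tested receptor adaptors and effectors 13 rose, 14 fell and 3 missed the threshold, and their median log2 fold change was 0.02, against 0.00 for all tested genes. Pik3r1, the regulatory subunit through which phosphatidylinositol 3-kinase docks on PDGF receptors, fell to 56.8 ± 1.98 CPM in FR, against 150 ± 0.932 CPM in WT. Akt1, a kinase downstream of phosphatidylinositol 3-kinase, had 205 ± 3.94 CPM in FR and 283 ± 4.77 CPM in WT. Slc9a3r1, a scaffold protein that binds the tail of PDGFRβ, rose to 63.5 ± 4.25 CPM in FR, against 29.8 ± 2.07 CPM in WT (SD, n = 3 each). By edgeR each of the 3 had an adjusted p of 1.29e-14 or less. Named after the values were seen, Slc9a3r2 of the same list went the other way from Slc9a3r1. It had 0.658 ± 0.440 CPM in FR and 3.99 ± 0.266 CPM in WT (SD, n = 3 each). Its log2 fold change was −2.57 ± 0.29 SE (edgeR adjusted p = 1.20e-07), on 4, 17 and 23 FR counts.

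Of 13 tested receptor phosphatases, ubiquitin ligases and inhibitory adaptors, 4 rose and 5 fell (69.2% in all, median log2 fold change −0.09). This is near the 70.1% called among all tested genes. Ptprj, a receptor-type phosphatase that acts on PDGFRβ, fell to 0.311 ± 0.213 CPM in FR, against 6.87 ± 0.731 CPM in WT (log2 fold change −4.47 ± 0.26 SE, edgeR adjusted p = 1.51e-14). The size of this fall rests on 10, 8 and 2 FR counts, with FR replicate 3 below 3 counts. Cblb, a ubiquitin ligase for receptor kinases, had 10.3 ± 1.32 CPM in FR and 19.2 ± 1.49 CPM in WT, and the adaptor gene Grb10 had 539 ± 11.7 CPM in FR and 354 ± 9.49 CPM in WT (SD, n = 3 each; edgeR adjusted p = 7.63e-10 and 4.58e-18). Of 11 tested ligand proteases and coreceptors 3 rose and 8 fell (median −0.23), where 34.6% of all tested genes were higher and 35.5% lower. Lrp1, an endocytic receptor that associates with PDGFRβ, fell to 842 ± 10.5 CPM in FR, against 2723 ± 84.0 CPM in WT. Sparc, a matrix protein that binds PDGF, had 685 ± 9.04 CPM in FR and 1655 ± 13.6 CPM in WT, and Cspg4, the NG2 proteoglycan that binds PDGF-AA, had 98.5 ± 1.24 CPM in FR and 205 ± 1.57 CPM in WT. Nrp1, a neuropilin that acts as a coreceptor, rose to 106 ± 2.04 CPM in FR, against 45.4 ± 0.402 CPM in WT (SD, n = 3 each). By edgeR each of the 4 had an adjusted p of 6.04e-22 or less. Named for their role after the values were seen, the genes of activating proteases had log2 fold changes of 0.12 ± 0.04 SE for Furin, which cuts PDGF-A and PDGF-B, 0.39 ± 0.09 for Plat, which cuts PDGF-C, and −0.23 ± 0.08 for Plau, which cuts PDGF-D (edgeR adjusted p = 3.26e-03, 2.07e-04 and 0.0136).

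Of 31 tested immediate early and feedback genes, which growth factors including PDGF can induce, 9 rose and 14 fell (74.2% in all, median log2 fold change −0.03). Among all tested genes 70.1% were called. Klf4 fell to 21.0 ± 1.83 CPM in FR, against 101 ± 1.41 CPM in WT. Fosl2, an AP-1 gene, rose to 380 ± 3.54 CPM in FR, against 188 ± 2.83 CPM in WT, and the MAPK phosphatase gene Dusp1 rose to 57.4 ± 0.536 CPM in FR, against 16.5 ± 0.825 CPM in WT (SD, n = 3 each; edgeR adjusted p of 4.12e-22 or smaller for these 3 genes). The deposited annotation offers a list made by others. Terms that name platelet-derived growth factor were carried by 97 genes of the table beside the 7, of which 63 were tested, 25 rose and 31 fell (88.9% in all, median −0.09, the same with the 1 gene that had no FR count at its bound). The smallest adjusted p-values in it belonged to matrix genes, Col1a2 (log2 fold change −1.58 ± 0.02 SE), Col3a1 (−1.47 ± 0.03) and Fn1 (−1.22 ± 0.02), which encode collagen chains and fibronectin. Plekha1, which encodes a phosphoinositide-binding adaptor, rose (1.09 ± 0.03).

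**Figure D4:**
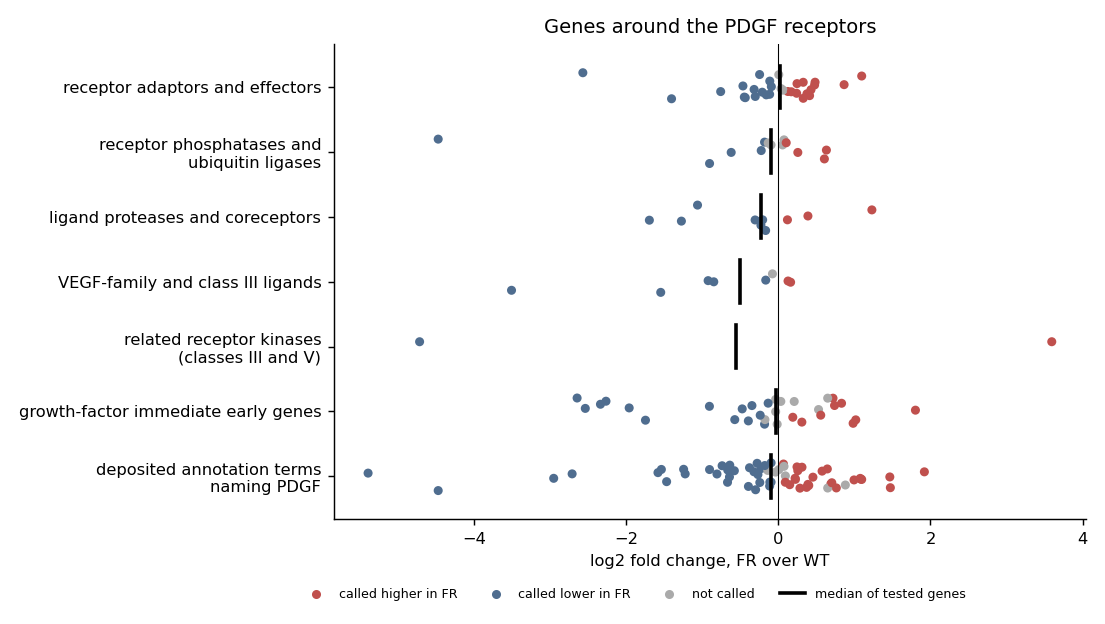
Log2 fold change, FR over WT, of each tested gene (point) in 7 groups of genes around the PDGF receptors, coloured by the call at an adjusted p of 0.05, with the median as a bar. Points lie on both sides of 0 in every group, and the 1 gene without any FR count is not drawn.

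PDGFRα and PDGFRβ belong to the class III receptor tyrosine kinases with KIT, CSF1R and FLT3, and the VEGF receptors are close relatives. Of the 6 related genes only Csf1r and Flt1 had enough counts to test. Csf1r, the receptor for colony-stimulating factor 1, had 7.87, 6.70 and 6.82 CPM in FR and 0.452, 0.829 and 0.507 CPM in WT. It was about 12.1-fold higher (log2 fold change 3.59 ± 0.21 SE, edgeR adjusted p = 3.82e-15), and the FR and WT libraries lay far apart. Flt1, a VEGF receptor, had 0.364, 0.120 and 0.331 CPM in FR and 6.56, 7.18 and 7.14 CPM in WT (log2 fold change −4.71 ± 0.25 SE, edgeR adjusted p = 3.32e-16). The size of the Flt1 change rests on 7, 3 and 7 FR counts. Kit and Flt3 had no count in any library, which allows up to 0.110 to 0.156 CPM, the level of 3 counts. Kdr and Flt4 had 1 count at most in any library. Of the 8 related ligand genes tested, 2 rose and 5 fell (median −0.51), where 34.6% of all tested genes were higher and 35.5% lower. Csf1, the ligand of CSF1R, fell to 315 ± 4.39 CPM in FR, against 597 ± 11.9 CPM in WT, and Vegfc fell to 0.503 ± 0.108 CPM in FR, against 5.77 ± 0.199 CPM in WT. Vegfd had 18.6 ± 1.48 CPM in FR and 33.4 ± 1.63 CPM in WT, while Kitl, the ligand of KIT, rose to 92.9 ± 3.22 CPM in FR, against 83.1 ± 3.49 CPM in WT (SD, n = 3 each; edgeR adjusted p of 3.99e-04 or smaller for these 4 genes).

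Csf1r is also the gene next to Pdgfrb, so the genes beside each member were examined. The 2 nearest protein-coding genes on each side were taken from the RefSeq gene order (assembly GRCm38.p6). Counts sufficed for 15 of these 28 genes, and Gm5294 and Gm52351 were not found by name among the deposited genes. Among the 15, 7 rose and 6 fell, and the median log2 fold change was 0.10. Of all tested genes, 34.6% were higher and 35.5% lower in FR, so that calls among neighbours are common too. Beside Pdgfrb, Csf1r rose far more than Pdgfrb itself and Hmgxb3 rose little (0.12 ± 0.05 SE, edgeR adjusted p = 0.0384). Beside Pdgfra, Chic2 did not pass (0.10 ± 0.06 SE, edgeR adjusted p = 0.112), and Gsx2, Kit and Kdr could not be tested. Pdgfb and Pdgfd lay among neighbours that moved less, and in both directions. Next to Pdgfb, Apobec3 was at 1.58 ± 0.07, Cbx7 at 0.09 ± 0.10 and Rpl3 at −0.56 ± 0.03, and next to Pdgfd, Casp12 was at 1.03 ± 0.05, Casp4 at 0.69 ± 0.08 and Dync2h1 at −0.54 ± 0.06 (log2 fold change ± SE). Beside Pdgfrl, Slc7a2 fell more than Pdgfrl did, to 4.59 ± 0.524 CPM in FR, against 63.0 ± 0.193 CPM in WT, while Mtus1 rose (0.35 ± 0.07 SE). Beside Pdgfc, Glrb (−3.23 ± 0.17 SE) and Ctso (−0.49 ± 0.08) fell, and beside Pdgfa, Fam20c fell (−1.31 ± 0.07) and Dnaaf5 rose (0.35 ± 0.05). Strandedness is not given in the sources used here, so overlapping genes on opposite strands may share counts.

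**Figure D5:**
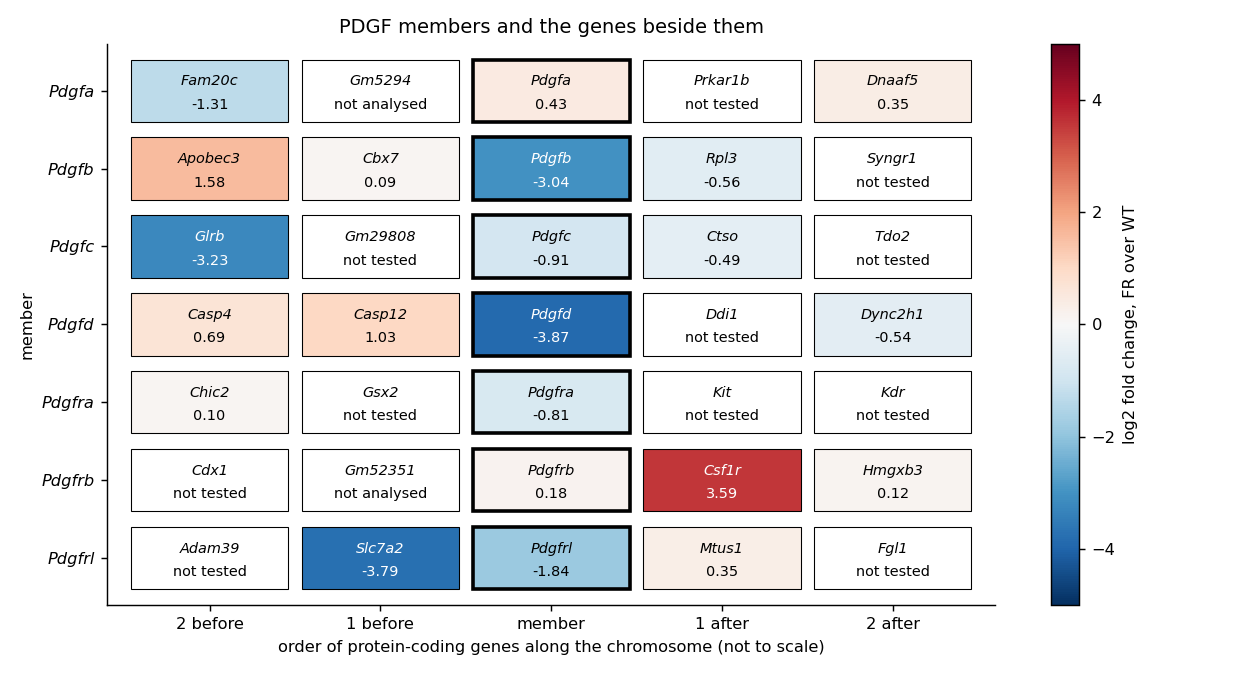
Log2 fold change, FR over WT, of each PDGF gene (middle column) and of the 2 protein-coding genes on each side of it in chromosome order, not to scale. White boxes had too few counts or were not analysed, and the strongest colours are Pdgfd (−3.87), Slc7a2 (−3.79) and Csf1r (3.59).

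Markers were read beside these results, and their part in them was not tested. The count of each marker list is to be read beside all tested genes, of which 34.6% were higher and 35.5% lower in FR. Of 11 osteoblast markers 7 could be tested and all 7 fell. Col1a2, Sparc, Dmp1 and Phex were additions to the osteoblast markers set down with the tests. Of the markers set down, only Runx2, Col1a1 and Spp1 could be tested, so the count of 7 rests in part on the additions. Runx2 was at −0.29 ± 0.04, Col1a1 at −2.99 ± 0.02, Spp1 at −1.86 ± 0.04, Dmp1 at −3.77 ± 0.22 and Phex at −0.88 ± 0.13 (log2 fold change ± SE), and Col1a2 and Sparc are given above. Of the 4 not tested, Sp7, Alpl, Bglap and Ibsp, none had more than 8 counts in any library. The late markers Dmp1 and Phex were detected, with 14, 7 and 15 counts of Dmp1 in FR and 186, 215 and 198 in WT, and 71, 110 and 73 counts of Phex in FR and 194, 186 and 182 in WT. Of 8 fibroblast and stromal markers tested, 6 fell and none rose, among them Prrx1 (−0.89 ± 0.02), Cd34 (−0.73 ± 0.03) and Dcn (−1.71 ± 0.08), and the list summed to between 530 and 536 CPM in FR and between 927 and 941 CPM in WT. Of 6 pericyte and smooth muscle markers tested, 5 fell, among them Acta2 (−1.87 ± 0.03), and Des rose (1.82 ± 0.16). That list summed to between 267 and 271 CPM in FR and between 799 and 804 CPM in WT, and the pericyte markers Rgs5, Abcc9 and Kcnj8 had at most 4 counts in any library. The 8 haematopoietic markers summed to between 9.10 and 10.6 CPM in FR and between 0.897 and 1.64 CPM in WT. Both tested ones rose, Csf1r and Cd68 (2.25 ± 0.32, edgeR adjusted p = 5.07e-07), while Ptprc, which marks nearly all white blood cells, had 5, 3 and 3 counts in FR and 0, 3 and 0 in WT, and Adgre1, Itgam and Cd3e had at most 1 count in any library. The 7 endothelial markers summed to between 3.54 and 4.83 CPM in FR and between 4.19 and 4.62 CPM in WT, with Vwf at 1.13 ± 0.29 and Emcn at −1.16 ± 0.22, and the 5 epithelial markers summed to at most 0.779 CPM in FR and at most 1.36 CPM in WT.

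The genes whose profiles over the 6 libraries were most like those of each member were found by the Euclidean distance between log2 CPM profiles centred on each gene, among about 9997 genes with a mean of at least 5 CPM. For Pdgfra these were Tmem97 (distance 0.0387) and Slc1a3 (0.0482), for Pdgfrb Ralgapa2 (0.0184) and Kirrel (0.0293), for Pdgfa Fxr2 (0.0225) and Hbs1l (0.0401), and for Pdgfc Stom (0.0478) and Ccnd2 (0.0489). The scarce members had looser matches, with Synpo2 (0.318) and Ifi47 (0.321) for Pdgfb, Trp63 (0.465) and Adra1b (0.693) for Pdgfd, and Scly (0.496) and Galm (0.657) for Pdgfrl. With only 2 groups many genes share such a profile, and none of these 14 genes was among the closest when profiles were also scaled to equal variance.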

How the data were processed

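Expected counts of the 6 libraries, with no depth scaling, were taken from a table the authors deposited, along with its gene lengths and annotation terms. The tools fastp, HISAT and RSEM and the build GRCm39 are those named in the submitters' processing notes, and their versions are not given in the sources used here. RSEM shares out reads that match several genes, so values of near-identical genes are estimates. Per the labels' protocols, RNA was selected for poly(A) and sequenced in pairs. Library totals ran from 19246119 to 25185697 counts in FR and from 25700497 to 27140662 in WT, and 3 counts equal 0.110 to 0.156 CPM (counting error only).

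Counts were rounded, filtered with filterByExpr, scaled with TMM factors (0.995 to 1.01) and tested FR over WT with the robust quasi-likelihood test of edgeR 4.0.16 in R 4.3.3, with adjustment over 14889 genes and a threshold of 0.05. CPM use the unrounded values. The 733 assembled loci without a name were kept. No library was a copy of another, since chi-square over its degrees of freedom was 2.34 to 3.37 within groups. The members, lists, tests and naming rule were chosen with earlier results of these data known. Named are the 7 members, in each list the 3 called genes with the smallest p and the first in the other direction where those 3 agree, all osteoblast markers and related receptor kinases, neighbours, and the 2 genes most like each member; 1 gene that the rule names is not reported here. On simulated counts of 14694 genes for FR against WT, edgeR called 57.1% of genes changed 1.2-fold, 88.0% changed 2-fold and 100% changed 4-fold, and 0.0621% of unchanged genes. In that simulation 14497 genes were unchanged, and every gene had the same spread between libraries beyond counting error. In the data 70.1% of tested genes were called, so the simulated rates do not carry over to them. Alternatives used DESeq2 1.42.0, limma 3.58.1, other scalings and filters, glmTreat, a replicate block and each library left out. Figures were drawn with matplotlib 3.10.9.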

Additional observations from a re-analysis of the deposited data

How the results depend on the processing

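All 7 genes kept their direction under every alternative run and were called under each of them, except Pdgfrb under glmTreat against 1.2-fold (log2 fold change 0.18, adjusted p = 1.00). With each library left out in turn, log2 fold changes ran from 0.39 to 0.46 for Pdgfa, −3.24 to −2.86 for Pdgfb, −0.95 to −0.88 for Pdgfc, −4.45 to −3.35 for Pdgfd, −0.84 to −0.79 for Pdgfra, 0.16 to 0.19 for Pdgfrb and −2.36 to −1.56 for Pdgfrl. The genes called over the whole table were 10440, and 9968 to 10221 with a library left out, 9518 with DESeq2 and 6376 under glmTreat (2879 higher, 3497 lower), which asks for a larger change. Beside 6376 of all 14889 tested genes, glmTreat called 14 of 30 adaptors and effectors, 5 of 13 phosphatases and ligases and 5 of 11 proteases and coreceptors. It also called 4 of 8 related ligands and 35 of 63 genes of the annotation terms. Of the epithelial markers none was called, against 1 with limma-voom and 0 to 1 with a library left out.

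With raw counts in place of counts per kilobase, the difference in share, FR minus WT in percentage points, was −16.9 for Pdgfra, 21.3 for Pdgfa, −11.6 for Pdgfc and −3.02 for Pdgfd, against −16.4, 26.7, −15.7 and −4.67, and the direction of each difference held, but Pdgfc in place of Pdgfa was then the leading ligand in FR. Of the 14 most alike genes 0 recurred with scaled profiles. No pairing of FR and WT libraries by replicate number was seen, though 3 libraries per group could miss a weak one. Deviations of same-numbered libraries correlated at −0.0280 to −0.00390, and those of differently numbered libraries at −0.0200 to 0.0368. The replicate block called 10292 genes and all 7 members. Leaving out assembled loci, an alternative chosen after seeing the data, changed no member's call. Pdgfd and Pdgfrl are limited by depth, with 20 and 42 counts over the FR libraries.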
